A study of Homo sapiens with 4 samples.

Results

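KRT5, KRT14, KRT15, KRT1, KRT10 and KRT2, the keratin genes that mark the basal and spinous layers of the epidermis, were followed in HaCaT, a spontaneously immortalised human keratinocyte line, by RNA sequencing of polyadenylated RNA. The 6 genes were taken by symbol from a set list, with no reference to their levels, and all 6 had a row among the 27356 genes of each table. PBS (2 libraries) was compared with M5 (2 libraries), a mix of the cytokines IL-1α, IL-17, IL-22, TNF-α and Oncostatin M, each at 10 μg/L, given for 72 h from a density of 50%. All libraries came from this 1 line, in serum-containing medium. In the treatment field the M5 libraries carry DAC at 25 μM, against their titles and protocols, and the grouping here follows the titles. No label says whether replicates were separate cultures. The p-values of the gene fits set a difference only against the spread between libraries of a group. That spread is estimated in part from all genes tested, and it may be technical.

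Keratins form the intermediate filaments of epithelial cells. Each filament is built from pairs of a type I (acidic) and a type II (basic) keratin, so every epithelial layer expresses a matched pair. Basal keratinocytes of the epidermis carry KRT5 (type II) with KRT14 and some KRT15 (both type I), while cells that leave the basal layer switch to KRT1 (type II) with KRT10 (type I) and add KRT2 (type II) in the uppermost living layers. Injured or psoriatic epidermis instead adds the stress keratins KRT6A, KRT6B, KRT16 and KRT17.

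The libraries held between 15858644 and 19749612 counts, and keratin genes made up between 1.26% and 1.50% of them. The markers chosen for keratinocytes were present, and all 8 were tested. Their summed level was 9510 to 9519 CPM (counts scaled to library size with TMM factors) in PBS and 11309 to 12137 CPM in M5. The 8 include KRT5 and KRT14, with means of 2936 and 2835 CPM in PBS. Much of this sum therefore comes from keratins followed here and is no independent check of the cells. Of the 18455 genes tested, 36.8% changed (20.1% higher in M5, 16.7% lower), where changed means an adjusted p under 0.05 in edgeR's quasi-likelihood test. The higher share of these was 54.6% with TMM scaling, 33.2% with library totals and 30.4% with TPM scaling. The median log2 fold change of all genes moved from -0.01 to -0.20 and -0.23 with these scalings, so the call and direction of small changes depend on the scaling. Genes of the mitochondrial genome made up 4.09% to 4.29% of the PBS counts and 3.42% to 3.73% of the M5 counts. Their part in the keratin values was not tested.

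Of the 6 keratins, 5 passed the minimum of 10 counts over the 4 libraries. KRT5, KRT15, KRT10 and KRT1 fell and KRT14 rose. These counts, 4 lower and 1 higher of 5 tested, stand against 16.7% and 20.1% of all genes, and the median log2 fold change of the 5 was -0.93 (also with KRT1 at the bound given with its counts) against -0.01 for all genes. The 2 groups did not overlap in CPM for any of these 5 genes, which was also true of 66.5% of all genes tested. A lower level in these bulk samples can mean fewer cells that express a gene or less RNA in each cell, which cannot be told apart.

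**Figure D1:**
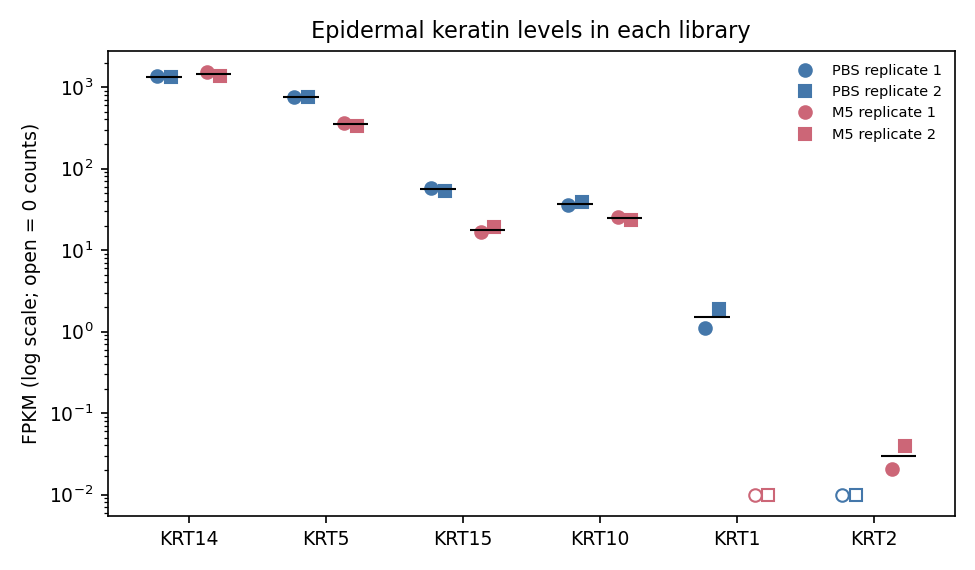
FPKM of the 6 keratins on a log axis in each PBS (blue) and M5 (red) library, with circles for replicate 1, squares for replicate 2, black lines at group means and open symbols for 0 counts. KRT14 stays near the top in all 4 libraries, KRT5 drops from 753 to 760 down to 336 to 363, and KRT1 has no counts in M5.

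KRT5, the type II keratin of the basal layer (ENSG00000186081, chromosome 12, 52514575 to 52520687, minus strand, GRCh38), was clearly lower in M5. Its FPKM, a level scaled by gene length and library total, was 760 and 753 in PBS and 363 and 336 in M5. Both M5 libraries lay far below both PBS libraries, and the replicates of each group lay close together. On the CPM scale KRT5 fell from 2936 ± 0.98 to 1539 ± 93.5 (SD, n = 2), 1.91-fold lower, with a log2 change of -0.93, an SE of 0.06 and an adjusted p of 4.23e-08 in edgeR.

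KRT14, the type I partner of KRT5 (ENSG00000186847, chromosome 17, 41582279 to 41586921, minus strand), was slightly higher in M5. Its FPKM was 1359 and 1318 in PBS and 1534 and 1378 in M5. The lower M5 library was just above the higher PBS library. With TMM, KRT14 rose from 2835 ± 44.0 to 3500.0 ± 287 CPM (SD, n = 2), 1.23-fold, with a log2 change of 0.30, an SE of 0.06 and an adjusted p of 0.00165 in edgeR. The call depended on the scaling: the log2 value was 0.12 with library totals (edgeR adjusted p = 0.114) and 0.09 with TPM scaling (edgeR adjusted p = 0.249), and the adjusted p over all alternatives ran from 5.48e-07 to 0.452. The sign was positive in every one of the 14 alternatives.

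**Figure D2:**
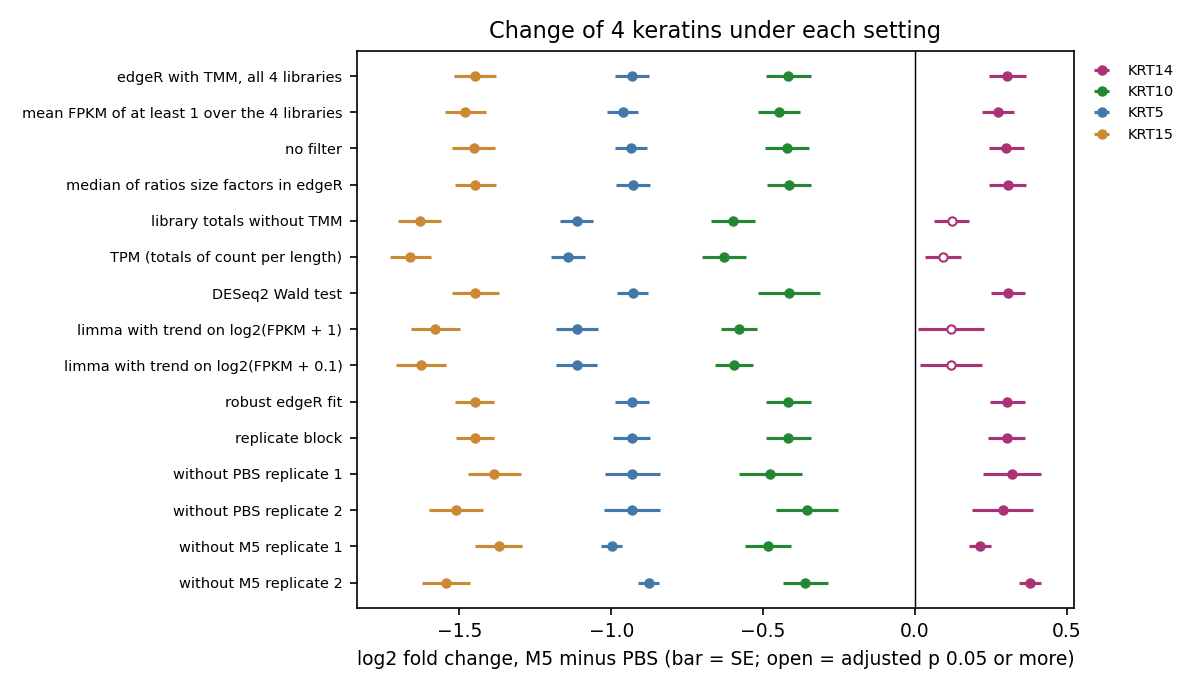
Log2 fold change (M5 minus PBS) with its standard error for KRT14, KRT10, KRT5 and KRT15 under each setting, filled where the adjusted p is under 0.05. KRT5, KRT15 and KRT10 stay left of 0 and filled throughout, whereas KRT14 is open with library totals, TPM scaling and both limma fits.

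KRT14 shares a long stretch of coding sequence with its neighbour KRT16 and short ones with KRT17, and both of these rose. The longest identical run, in capitals with 12 flanking bases on each side, covers 158 bases. It lies in exon 1 of KRT14 (chr17:41586356-41586537 with flanks, minus strand, GRCh38) and in exon 1 of KRT16 (chr17:41612204-41612385, minus strand). It is shown because a read that falls within it fits both genes equally. Both are given 5′ to 3′ along the mRNA, from GENCODE 29.
KRT14: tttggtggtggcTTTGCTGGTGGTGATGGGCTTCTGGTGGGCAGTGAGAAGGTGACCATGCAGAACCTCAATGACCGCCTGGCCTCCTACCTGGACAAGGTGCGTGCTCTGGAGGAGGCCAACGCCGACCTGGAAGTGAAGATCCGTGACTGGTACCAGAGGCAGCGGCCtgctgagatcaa
KRT16: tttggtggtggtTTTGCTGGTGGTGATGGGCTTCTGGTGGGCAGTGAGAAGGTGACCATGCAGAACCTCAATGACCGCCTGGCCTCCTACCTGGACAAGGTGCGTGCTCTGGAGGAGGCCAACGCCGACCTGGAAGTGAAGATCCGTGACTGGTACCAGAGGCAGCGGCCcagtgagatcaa
Of the 50-base windows of the KRT14 mRNA, 23.8% also occur in transcripts of 12 other genes. KRT16 held 11.2%, pseudogenes of KRT16 up to 8.37% (KRT16P6) and KRT17 0.868%. At 150 bases 0.595% of windows occur in another gene, all in KRT16. The sources used here do not give the read length or how such reads were counted. KRT16 itself rose from 5.74 ± 0.637 to 52.6 ± 0.632 CPM (SD, n = 2), as counted. KRT17 rose from 386 and 412 to 1867 and 1809 CPM. The part of shared reads in the KRT14 value was not tested.

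KRT5 shares less with its own type. Its longest run common with another keratin, in capitals, is 134 bases of exon 2 (chr12:52519003-52519160 with flanks, minus strand) that also stand in exon 2 of KRT6C (chr12:52472123-52472280, minus strand), a close copy of the stress keratin KRT6A.
KRT5: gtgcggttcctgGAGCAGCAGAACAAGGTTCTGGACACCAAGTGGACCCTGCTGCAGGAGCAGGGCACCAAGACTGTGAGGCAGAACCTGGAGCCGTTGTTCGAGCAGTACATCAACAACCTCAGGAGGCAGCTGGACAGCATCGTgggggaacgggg
KRT6C: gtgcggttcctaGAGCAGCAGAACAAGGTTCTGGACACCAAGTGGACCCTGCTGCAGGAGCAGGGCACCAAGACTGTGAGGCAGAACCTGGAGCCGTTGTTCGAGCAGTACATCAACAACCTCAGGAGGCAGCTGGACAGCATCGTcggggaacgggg
At 50 bases 3.99% of KRT5 windows and 0.725% of KRT15 windows occur in another gene, and at 150 bases 0% of both do. The figure was 0% for KRT1, KRT10 and KRT2 at each of these window sizes. KRT6C held 3.42% of the KRT5 windows, KRT6B 3.30% and KRT6A 2.62%, and all 3 rose while KRT5 fell. The part of shared reads in the KRT5 value was not tested.

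KRT15, the second type I keratin of the basal layer and a marker of the hair follicle bulge (ENSG00000171346, chromosome 17, 41513743 to 41522529, minus strand), showed the steepest fall among the basal keratins. Its FPKM was 58.0 and 52.7 in PBS and 16.7 and 19.0 in M5. The groups were well apart, with the highest M5 library below the lowest PBS library by more than either group's spread. KRT15 fell from 310.2 ± 19.3 to 114 ± 9.50 CPM (SD, n = 2), 2.73-fold lower, with a log2 change of -1.45, an SE of 0.07 and an adjusted p of 3.49e-09 in edgeR.

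The ratios between the basal keratins within a library also differed between the groups. Per length, KRT5 stood at 0.559 and 0.571 of the KRT14 level in PBS and at 0.237 and 0.244 in M5, 2.35-fold lower. KRT15 stood at 0.0427 and 0.0400 of KRT14 in PBS and at 0.0109 and 0.0138 in M5, 3.35-fold lower. For both ratios the groups were separate, and the exact permutation test (two-sided) gave p = 0.33, the smallest value that 2 against 2 libraries allow. These ratios are within a library, so no choice of library scaling alters them. Their absolute size does depend on the gene lengths in the deposited FPKM, 4133 bp for KRT5, 2255 bp for KRT14 and 5969 bp for KRT15, against longest coding lengths of 1770, 1416 and 1368 bp. Per coding length KRT5 was at 0.820 and 0.837 of KRT14 in PBS and at 0.347 and 0.357 in M5.

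KRT10, the type I keratin of the spinous layer (ENSG00000186395, chromosome 17, 40818117 to 40822595, minus strand), was present at a low level and fell. Its FPKM was 35.8 and 38.6 in PBS and 25.5 and 23.6 in M5. All M5 values were below all PBS values. KRT10 fell from 75.6 ± 4.50 to 56.6 ± 3.51 CPM (SD, n = 2), 1.34-fold lower, with a log2 change of -0.42, an SE of 0.07 and an adjusted p of 0.000598 in edgeR. Against KRT14 it stood at 0.0263 and 0.0293 in PBS and at 0.0166 and 0.0171 in M5, 1.65-fold lower (exact permutation p = 0.33, the smallest possible). KRT10-AS1, annotated on the opposite strand with 56 bp of exon in common with KRT10, had 369 and 283 counts in PBS and 161 and 194 in M5. It fell by 0.98 on the log2 scale (SE 0.16, edgeR adjusted p = 0.000336), a call lost without M5 replicate 1 (-0.88) or 2 (-1.09). The library kit does not mark strand, so reads in the shared 2.61% of KRT10 exon sequence cannot be told apart by strand. With both genes added, the level was 94.2 and 95.4 CPM in PBS and 68.2 and 64.6 CPM in M5, with no overlap.

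KRT1, the type II partner of KRT10 (ENSG00000167768, chromosome 12, 52674736 to 52680407, minus strand), was low in PBS and had no counts in M5. It had 44 and 76 counts in the PBS libraries and 0 in both M5 libraries. In FPKM this was 1.12 and 1.90 in PBS. The PBS replicates differed from each other by more than those of any other tested keratin of the 6 in relative terms. Against a floor of 3 counts over the M5 libraries together, KRT1 was at least 42.8-fold lower in M5 (edgeR adjusted p = 6.77e-06). That bound was 20.9-fold without M5 replicate 2 and 21.9-fold without M5 replicate 1, because fewer counts then lie behind the floor, and 31.4-fold and 54.2-fold without PBS replicate 2 and 1. Floors cover counting error only.

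KRT2, the type II keratin of the upper spinous and granular layers (ENSG00000172867, chromosome 12, 52644558 to 52652164, minus strand), was not detectable beyond single reads. It had 0 counts in both PBS libraries and 1 and 2 counts in M5. In 1 library 3 counts correspond to between 0.152 and 0.189 raw CPM, so all 4 values lie under that limit, and KRT2 was not tested.

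The level order of the 6 genes was read per length. In PBS it was KRT14, KRT5, KRT15, KRT10, KRT1 and KRT2, and no neighbours in that order overlapped. In M5 KRT10 stood above KRT15: the KRT15 to KRT10 ratio went from 1.62 and 1.36 to 0.655 and 0.805. That change of places rests on the deposited length of KRT15, because per coding length the ratio was 5.73 and 4.82 in PBS and 2.31 and 2.84 in M5, above 1 throughout. KRT1 and KRT2 could not be ordered in M5.

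RefSeq (GRCh38.p14) gave a promoter window for 3 of the 6 genes, KRT5, KRT10 and KRT2. That of KRT5 lies inside the GENCODE 29 transcript, which starts further upstream, so it is not shown or described. The 250 bases before the RefSeq start of KRT10 (chr17:40822615-40822864, minus strand) are shown as the window of the spinous keratin that was measured well, 5′ to 3′, with motif matches in capitals.
KRT10: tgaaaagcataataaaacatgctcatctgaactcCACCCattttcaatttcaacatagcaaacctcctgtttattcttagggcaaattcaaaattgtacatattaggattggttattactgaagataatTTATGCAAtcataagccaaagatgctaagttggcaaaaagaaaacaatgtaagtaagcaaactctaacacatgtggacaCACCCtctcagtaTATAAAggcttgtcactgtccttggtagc
Searched on both strands were TATAAA (the core promoter box, in 10.7% of all 35116 windows of this length), TGANTCA (AP-1, 6.57%), TTCNNNGAA (STAT, 6.57%), TTGCNNAA (C/EBP, 9.05%), an NF-kB motif of 10 letters (22.6%) and CACCC (SP and KLF factors, 54.7%). KRT10 held TATAAA, whose first base lies at position -29 from the start, the C/EBP letters on the minus strand at -121 and CACCC at -216 and -42, with no overlap between matches. The KRT2 window held CACCC at -60 alone. The GC content was 34.8% for KRT10 and 43.6% for KRT2. A match describes letters in this window only.

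The basal and spinous keratins made up less of the keratin total in M5. Together the 6 genes made up 53.6% and 53.5% of the summed keratin FPKM in PBS and 38.6% and 36.3% in M5 (exact permutation p = 0.33, the smallest possible). The summed FPKM of the 6 was 2214 and 2164 in PBS and 1940 and 1757 in M5, 1.18-fold lower. Most of the loss of share was KRT5, with 18.4% and 18.6% in PBS and 7.23% and 6.95% in M5. KRT14 held 32.9% and 32.6% in PBS and 30.6% and 28.5% in M5. A share also depends on the other keratins, and KRT14 lost share although its FPKM was higher in M5. KRT6A, a stress keratin of type II, went from 16.7% and 16.4% to 29.2% and 30.8%, and KRT17, a stress keratin of type I, from 3.34% and 3.60% to 11.6% and 11.8%. The KRT6A to KRT5 ratio per length moved from 0.908 and 0.881 to 4.04 and 4.43. KRT5 and KRT6A together stood at 1.07 and 1.07 of KRT14 in PBS and at 1.19 and 1.32 in M5.

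**Figure D3:**
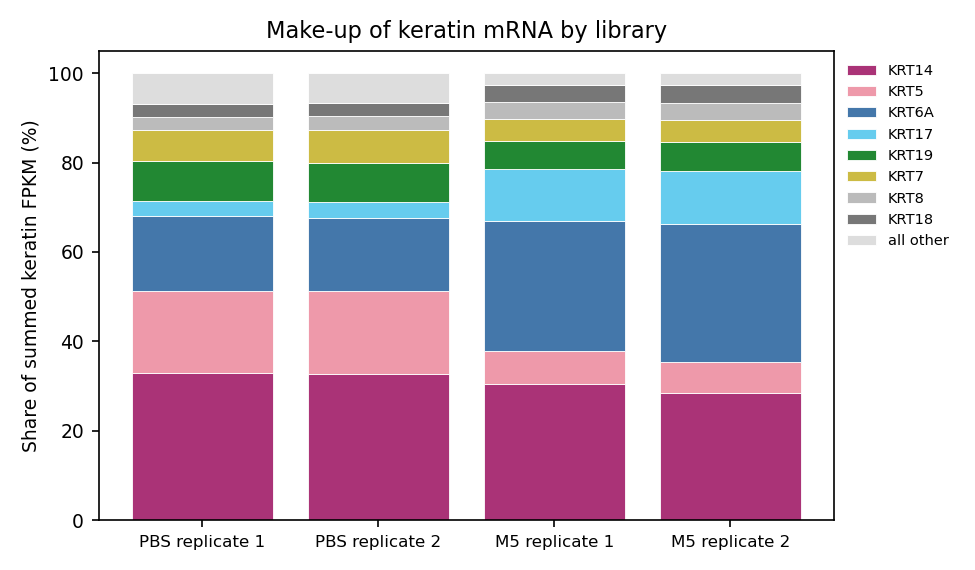
Share of the summed FPKM of all keratin genes (%) in each library, stacked from KRT14 at the bottom to all other keratins at the top. The KRT5 band narrows from 18.4% and 18.6% to 7.23% and 6.95% while the KRT6A band widens to 29.2% and 30.8%.

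Summed over the family, both keratin types were higher in M5. Type I keratins summed to 2139 ± 38.6 FPKM in PBS and 2605 ± 112 in M5 (SD, n = 2), and type II keratins to 1947 ± 20.8 and 2322 ± 20.2. The type II to type I ratio was 0.906 and 0.915 in PBS and 0.870 and 0.914 in M5, with overlapping groups (exact permutation p = 0.667). Per coding length the ratio was 1.15 and 1.17 in PBS and 1.02 and 1.05 in M5, with no overlap, so whether the balance moved depends on the lengths used. This ratio was chosen after the values were seen.

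Among the 48 other keratin genes listed, 25 had a row and 17 were tested, of which 7 rose and 7 fell, against 20.1% and 16.7% of all genes. The stress keratins all rose, 5 of 5: KRT6B by 6.42, KRT16 by 3.19, KRT17 by 2.20 and KRT6A by 1.31 on the log2 scale, and KRT6C, with 26 and 20 counts in M5, at least 14.3-fold higher against 0 counts in PBS. That bound was 7.17-fold without PBS replicate 1 and 7.15-fold without PBS replicate 2. KRT6A, KRT6B and KRT6C are close copies, so the split of reads among them is uncertain. The simple epithelial pair KRT8 and KRT18, whose gene spans overlap on opposite strands of chromosome 12, rose by 0.85 and 0.84. Among the keratins that fell were KRT4 (272.5-fold), KRT13 (92.6-fold), KRT3 (21.5-fold), KRT81 (7.16-fold) and KRT80 (4.24-fold). In M5, KRT4 had 5 and 2 counts and KRT3 had 7 and 2, so the sizes of these 2 falls are uncertain. Single libraries moved some keratin values: KRT4 was at -8.89 on the log2 scale without M5 replicate 1. KRT3 was at -5.58 without M5 replicate 1 and -3.78 without M5 replicate 2, and KRT6B at 7.27 without PBS replicate 1. KRT9, a keratin of palm and sole skin, fell 1.80-fold, a call lost without PBS replicate 1 and without either M5 library. KRT19 and KRT7 had log2 values of -0.02 and -0.11 and did not pass. With library totals both passed, at -0.20 and -0.29. The falls of KRT5 and KRT15 were smaller than those of KRT4 and KRT13, though this difference between genes was not tested. By position, the tested keratins of the chromosome 12 cluster gave 5 rises and 7 falls of 14, and those of chromosome 17 gave 3 rises and 4 falls of 8, where all genes gave 20.1% rises and 16.7% falls.

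**Figure D4:**
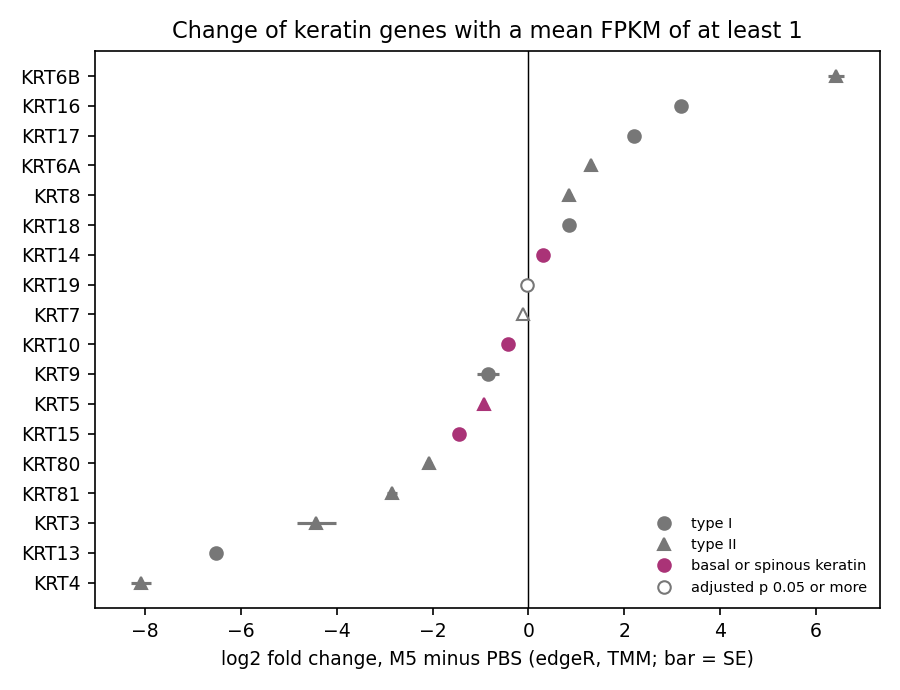
Log2 fold change (M5 minus PBS, edgeR with TMM) with its standard error for each keratin gene whose mean FPKM reached 1, with circles for type I, triangles for type II, purple for basal and spinous keratins and open symbols where the adjusted p is 0.05 or more. KRT14, KRT10, KRT5 and KRT15 lie between 0.30 and -1.45, inside a family range that runs from KRT6B at 6.42 to KRT4 at -8.09. The KRT4 value rests on 5 and 2 counts in the M5 libraries.

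Most other genes of the basal layer rose, unlike KRT5 and KRT15. Of 16 tested basal layer and hemidesmosome genes, keratins not included, 12 rose and 3 fell (20.1% and 16.7% of all genes), with a median log2 fold change of 0.77 against -0.01 for all genes. LAMA3, a laminin chain that anchors basal cells to the basement membrane, rose by 1.75 (SE 0.06) on the log2 scale, and CDH3, the basal cadherin, by 1.75 (SE 0.05). The integrin ITGA6 and the desmosomal cadherin DSG3, both used here as keratinocyte markers, rose by 1.20 and 0.88. The 3 that fell were BCAM, a laminin receptor, 3.07-fold, DLK2 2.75-fold and COL7A1, the collagen of anchoring fibrils, 1.37-fold, named after their values were seen.

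Of 18 listed spinous layer genes other than keratins, 17 had a row and 14 were tested, of which 3 rose and 6 fell, with a median of -0.50. The share that rose was near the 20.1% of all genes, and 16.7% of all genes fell. The 3 that rose were FABP5, PERP and DMKN, by 0.58, 0.33 and 0.24 on the log2 scale, named after their values were seen. With library totals 1 rose, and with TPM scaling 0 rose. SPINK5, a protease inhibitor of the granular layer, fell from 16.2 ± 2.32 to 3.79 ± 0.338 CPM (SD, n = 2), and MAL2, a membrane trafficking protein, from 439 ± 8.48 to 265 ± 17.4 CPM. CALML5, a calmodulin-like protein of differentiating keratinocytes, went from 0.972 to 0.110 CPM, a fall that did not pass without either M5 library (log2 values -3.10 and -3.03). The desmosomal cadherins DSG1 and DSC1, also on the spinous list, were under the count minimum. They had 2 and 1 counts (DSG1) and 7 and 2 counts (DSC1) in PBS and 0 in M5, and were named after their values were seen.

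All 29 listed regulators of epidermal keratin genes were tested. Of these 10 rose and 10 fell, against 20.1% and 16.7% of all genes, and their median was 0.07. TP63, the master factor of stratified epithelia and an activator of KRT5 and KRT14, which the basal list also holds, rose from 254 ± 1.12 to 419 ± 20.5 CPM (SD, n = 2), with a log2 change of 0.72, an SE of 0.06 and an adjusted p of 3.94e-07 in edgeR, and was named after its value was seen. MAF, a transcription factor of late differentiation, had 3 counts in PBS and 42 in M5, a ratio of 13.1 (exact Clopper-Pearson 95% interval 4.18 to 65.96, counting error only), and the call was lost without M5 replicate 2 and in limma on log2(FPKM + 1). POU3F1 had 16 and 12 counts in PBS and 0 and 4 in M5 and fell by 2.83 on the log2 scale. The call was lost in DESeq2 and without PBS replicate 1 or M5 replicate 1, where the log2 value was -1.91, and without M5 replicate 2 no M5 count remained.

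Of 16 tested linkers and partners of keratin filaments 7 rose and 4 fell, against 20.1% and 16.7% of all genes, with a median of 0.05. With library totals 7 fell, and with TPM scaling 8 fell. KLHL24, a ubiquitin ligase adaptor that targets KRT14 for degradation, rose from 16.7 and 15.3 to 35.5 and 36.4 CPM, and MACF1, a cytoskeletal crosslinker, from 272 ± 8.41 to 542 ± 51.8 CPM. FAM83H, which organises keratin filaments, rose by 1.50 (SE 0.27), but had 595 counts in 1 M5 library and 291 in the other and did not pass in limma or in the robust edgeR fit. Without M5 replicate 1 its log2 value was 0.84.

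The genes nearest in pattern were found by Euclidean distance between log2(CPM + 1) values centred over the 4 libraries, among 10255 candidates (10256 for KRT1) filtered at a mean FPKM of 1. Nearest to KRT5 were TCEA2 (0.0158) and TNS3 (0.0283), and to KRT14 WRNIP1 (0.0113) and NACC1 (0.0132). Like that of KRT14, the calls of WRNIP1 and NACC1 were lost with library totals, TPM scaling and limma, and those of ARSI and RPS3AP6 (nearest to KRT10) without M5 replicate 2. Nearest to KRT15 were HOXC13, a homeobox factor (0.0404), and RHOBTB3 (0.115), to KRT10 ARSI (0.0114) and the pseudogene RPS3AP6 (0.0152), and to KRT1 KLK7 (0.249) and SOX2 (0.295). With 4 libraries in 2 groups this likeness rests mainly on the size of the change in log2(CPM + 1). That scale shrinks changes at few CPM, as for KRT1. KLK7 and SOX2 changed by -2.58 and -3.76 on the log2 scale of edgeR, whereas KRT1 was at least 42.8-fold lower.

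Markers of other cell types were low, with a row for 6 of 7 melanocyte, 5 of 7 fibroblast, 4 of 7 leukocyte, 2 of 5 Merkel cell and 4 of 5 endothelial genes. The summed level was 14.8 to 15.3 CPM in PBS and 8.97 to 10.5 CPM in M5 for melanocyte genes, with MITF the most abundant, and 4.36 to 4.88 and 4.19 to 6.42 CPM for fibroblast genes, with COL1A1. Leukocyte genes summed to 2.47 to 3.83 CPM in PBS and 8.34 to 9.24 CPM in M5, with CD14 the most abundant while PTPRC had no row. Merkel cell genes summed to at most 3.66 CPM, with SYP the most abundant, and endothelial genes to at most 4.08 CPM, with CDH5. Of the Langerhans cell genes 1 of 5 had a row, ITGAX, at up to 0.0537 CPM. All libraries came from 1 keratinocyte line, so these sums describe low-level counts in its libraries. The purity of the line was not tested. Each of these sums lies below the level of KRT10, while KRT1 in PBS, at 2.59 and 4.47 CPM, lies below the melanocyte sum and near the fibroblast, leukocyte and Merkel cell sums.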

How the data were processed

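RNA of 4 HaCaT libraries (2 PBS, 2 M5) was analysed, grouped by sample title. Per the file headers, each table gives a raw read count and an FPKM value per Ensembl gene. The deposited FPKM values follow from the deposited counts, each file's total and a whole-number gene length. HISAT2, HTSeq 0.13.5 and GRCh38 appear, without roles, in the submitters' processing notes. The sources used here do not give read length, annotation release or strand setting, and the kit does not mark strand. Every row carried an Ensembl identifier, and 6616 of the 27356 had no symbol.

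Counts were tested with edgeR 4.0.16 in R 4.3.3 (TMM, glmQLFit and glmQLFTest, two-sided, no replicate block) on the 18455 genes with at least 10 counts over the 4 libraries, with Benjamini-Hochberg adjustment over all of them and 0.05 as the threshold. Each SE was computed from the fold change and its F statistic. Levels are TMM-scaled CPM, or FPKM where genes are compared with each other. Replicates differed by more than sampling noise (median chi-square per gene 0.987 in PBS and 1.49 in M5, where sampling gives 0.455). On counts simulated for these 18455 genes the fit recovered 22%, 60%, 78% and 94% of genes changed 1.25-fold, 1.5-fold, 2-fold and 4-fold. Only 50 genes were changed at each fold size, none of them of low level, whereas 36.8% of genes were called in the data. These rates therefore need not hold for this comparison. Positions, exons and shared sequence come from GENCODE 29 (GRCh38), and promoters from RefSeq.

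Alternatives were no filter or a mean FPKM of at least 1, other scalings, DESeq2 1.42.0, limma 3.58.1 on log2(FPKM + 1) and log2(FPKM + 0.1), a robust fit, a replicate block and each library left out. Coding lengths and the type II to type I ratio were added after seeing the data. The KRT6A to KRT5, KRT5 plus KRT6A to KRT14 and KRT15 to KRT10 ratios were also not set in advance. Nor were the keratin sums and the sum of KRT10 and KRT10-AS1. Named genes are the 6 keratins, other keratins with a mean FPKM of at least 1, the 3 changed genes of largest log2 change in each other list, the most abundant gene of each other cell type and the 2 nearest patterns per tested keratin. Some genes that this rule selects are not reported here. The genes and lists were chosen with earlier results of these data known.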

Additional observations from a re-analysis of the deposited data

How the results depend on the processing

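The falls of KRT5, KRT15 and KRT10 kept their direction and call in all 14 alternatives, with log2 values from -1.14 to -0.88, -1.66 to -1.37 and -0.63 to -0.35, and that of KRT1 in all 13 that tested it. KRT1 did not pass the filter of a mean FPKM of at least 1. KRT14 lost its call with library totals (0.12), TPM scaling (0.092), limma on log2(FPKM + 1) (0.12) and limma on log2(FPKM + 0.1) (0.12), and kept it with median-of-ratios scaling in edgeR and in DESeq2 (0.31 in both). Leaving out each library gave 0.21 to 0.38. The loss of keratin share was -16.1 percentage points in FPKM and -18.4 in CPM.

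The count of changed genes, 6785, ran from 4048 to 5777 with 1 library left out, lowest without M5 replicate 1 and then without M5 replicate 2 (4189), with 2410 to 3265 higher and 1638 to 2519 lower. Higher genes numbered 2383 with TPM scaling, 2125 with limma on log2(FPKM + 1) and 2161 on log2(FPKM + 0.1). Lower genes numbered 5146 with library totals, 5465 with TPM scaling and 2005 at an adjusted p of 0.01. Of 42 list counts 38 stayed within 1.5 times. The exceptions were spinous genes that rose (1 with totals, 0 with TPM scaling) and filament linkers that fell (7 and 8). KRT19, not called, ran from -0.043 to 0.00438 with 1 library left out, above 0 without PBS replicate 1. Causes were not tested.

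Replicates of the 2 groups were matched here by number alone. Deviations of same-numbered libraries had a correlation of -0.0185 over 18455 genes. With 2 libraries per group this value cannot show whether they were paired. With the replicate block 7256 genes changed, KRT14 was at 0.30 and no call of the 5 tested keratins was lost. Depth limits KRT1 and KRT2.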

Other observations

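KRT77, a type II keratin of sweat ducts and the next keratin gene beyond KRT1 on chromosome 12 (52689626 to 52703463), also fell. Its counts were 6 and 11 with PBS and 0 and 0 with M5, a level at least 6.07-fold lower (edgeR adjusted p = 0.0103), a bound that was 3.11-fold without M5 replicate 1, 2.96-fold without M5 replicate 2 and 7.84-fold and 4.29-fold without PBS replicate 1 and 2. It was chosen after its values were seen. KRT2, on the other side of KRT1, had 3 counts in all.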
